A study of Mus musculus with 96 samples.

Results

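The comparison described here set the prefrontal cortex of female mice exposed to maternal immune activation (MIA) against that of saline females, with neither group given the CSF1R inhibitor PLX5622. It rests on 13 of the 96 messenger RNA libraries of the study, 7 labelled MIA and 6 labelled saline. All genes with a value of at least 10 in at least 5 of these 13 libraries were taken, which were 18646 of the 22709 genes in the table. Values are signals, that is, read counts divided by a scaling factor for each library. The rest of the study covers hippocampus as well as prefrontal cortex, both sexes, and animals given the inhibitor, in 16 groups. What was measured is total RNA of each dissected tissue, sequenced after selection of messenger RNA. The labels give no strain, age, litter, agent or day of immune activation, and they call the uninhibited animals "Control" without naming a vehicle. Litter could not be modelled, so the p-values take the libraries of a group as independent, and they measure only the spread between these libraries.

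Maternal immune activation is an experimental model in which an immune response is raised in a pregnant dam and her offspring are studied later. The prefrontal cortex is an association area whose circuits mature late. Genes that follow neuronal activity within minutes to hours, called immediate-early genes, include transcription factors of the AP-1, Egr and Nr4a families and feedback phosphatases. Clock genes keep daily time in nearly all cells through a loop in which Clock and Arntl switch on the Per and Cry genes that in turn repress them. Levels of both groups of genes, and of genes switched on by glucocorticoid hormones, depend on the hour and circumstances of tissue collection, and the labels give neither.

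Depth was even, at 23961825 to 25770702 reads per library. The correlation between pairs of libraries, on log2(signal + 1), ran from 0.977 to 0.994. Libraries fell into a low and a high set by the share of signal from ribosomal protein and oxidative phosphorylation genes, with the largest gap over the 48 cortical libraries between 1.05% and 1.16%. MIA libraries 2, 3 and 4 and saline libraries 4, 5 and 6 stood apart above that gap. MIA library 3 lay at its edge, and its hippocampal counterpart did not stand apart. On the first principal component of the 13 libraries, which held 38.5% of the variance, MIA library 3 lay with the lower set. Slc17a7, the vesicular glutamate transporter that marks cortical excitatory neurons, was high throughout (32602 to 38023). Markers of striatal projection neurons, which belong to neighbouring tissue, varied widely (Drd2, 25.5 to 564; Adora2a, 72.3 to 768), with summed striatal signal of 13152 to 32258 in MIA and 14182 to 36569 in saline. The pituitary hormone gene Prl ranged from 0 to 246. How far such dissection differences enter the results was not tested. In these bulk samples fewer cells of a type and less RNA per cell cannot be told apart.

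No gene passed the test. Limma called 0 of 18646 genes at an adjusted p under 0.05 (0%), and the smallest adjusted p was 0.309. Before adjustment, 945 genes had a p under 0.05 (5.07% of those tested), 425 higher in MIA (2.28%) and 520 lower (2.79%). With the signal scaled to the same total in every library the split was 281 higher and 680 lower, around a median of -0.02, and with limma's library weights it was 878 higher and 558 lower. The unadjusted count was 1464 with a fitted term for libraries standing apart (738 higher, 726 lower), and limma's smallest adjusted p was then 0.153. On the recovered whole reads edgeR called 0 (0%; 932 or 5% unadjusted) and DESeq2 called 2 (0.0107%; 937 or 5.03% unadjusted), both higher in MIA. These were Pdk4 and Fosb, each at an adjusted p of 0.0286. Without MIA library 3, limma called 3 genes (0.0161%), Pdk4, Fosb and Tiparp, each higher in MIA at an adjusted p of 0.0345. The median difference over all genes was 0.01 on the log2(signal + 1) scale, on which all differences below are given as MIA minus saline. At the edge of the expression rule, Zpld1 and Rpsa-ps5 were just inside, with a fifth-highest signal of 10.1, and Olfr111 and Rbfaos just outside at 9.95. The fifth-highest signal lay between 10 and 11 for 255 genes and between 9 and 10 for 314.

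Among the genes with the smallest p-values, those higher in MIA were led by Pdk4 and by transcription factors of the immediate-early class. Pdk4, a kinase that holds back pyruvate oxidation and is induced by fasting and by glucocorticoids, had a signal of 280 to 450 in MIA (median 324) and 210 to 255 in saline (median 242). Every MIA library lay above every saline library. The difference was 0.51 ± 0.11 (SE, limma; adjusted p = 0.309), a 1.42-fold ratio.

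Fosb, a Fos-family subunit of the AP-1 factor, ran from 447 to 1337 in MIA (median 1116) and from 321 to 571 in saline (median 473). Here 6 of the 7 MIA libraries exceeded the highest saline library, and MIA library 3 did not. The difference was 1.00 ± 0.23 (limma adjusted p = 0.446). The related AP-1 subunit Fosl2 ran from 1355 to 3237 (median 2107) against 786 to 1532 (median 1172), a difference of 0.85 ± 0.20 (limma adjusted p = 0.446). Again MIA library 3 was lowest of its group and the only one within the saline range. Nr4a3, an orphan nuclear receptor of the immediate-early class, ran from 699 to 2042 (median 1538) against 543 to 887 (median 655), and differed by 1.01 ± 0.26 (limma adjusted p = 0.554).

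Tiparp, a mono-ADP-ribosyltransferase that represses the aryl hydrocarbon receptor, had a signal of 362 to 887 in MIA (median 735) and 330 to 605 in saline (median 416), a difference of 0.72 ± 0.18. MIA library 3, at 362, was the exception to an otherwise clear separation. Plat, which encodes tissue plasminogen activator, a protease released by active neurons and by endothelium, ran from 837 to 1003 (median 890) against 648 to 752 (median 709). The groups did not overlap, and the difference was 0.34 ± 0.08. Arl4d, a small GTPase of the ARF family, ran from 511 to 838 (median 727) against 268 to 483 (median 431), a difference of 0.74 ± 0.18 without overlap.

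Rasl11a, a small GTPase of the Ras superfamily, had 64.6 to 114 in MIA (median 81.3) and 41.2 to 62.4 in saline (median 54.5), a difference of 0.69 ± 0.17. Klf2, a zinc-finger factor induced by flow in endothelium and also found in other cells, had 151 to 248 (median 184) against 76.4 to 140 (median 116), a difference of 0.76 ± 0.20. Neither gene overlapped between the groups. The summed signal of the 19 endothelial and barrier genes was 13373 to 15822 in MIA and 11446 to 15610 in saline, and its part in the Klf2 value was not tested. Zcchc2, a zinc-finger protein gene, completed the higher set with 770 to 975 (median 850) against 629 to 814 (median 709), a difference of 0.29 ± 0.07 with overlap.

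**Figure D1:**
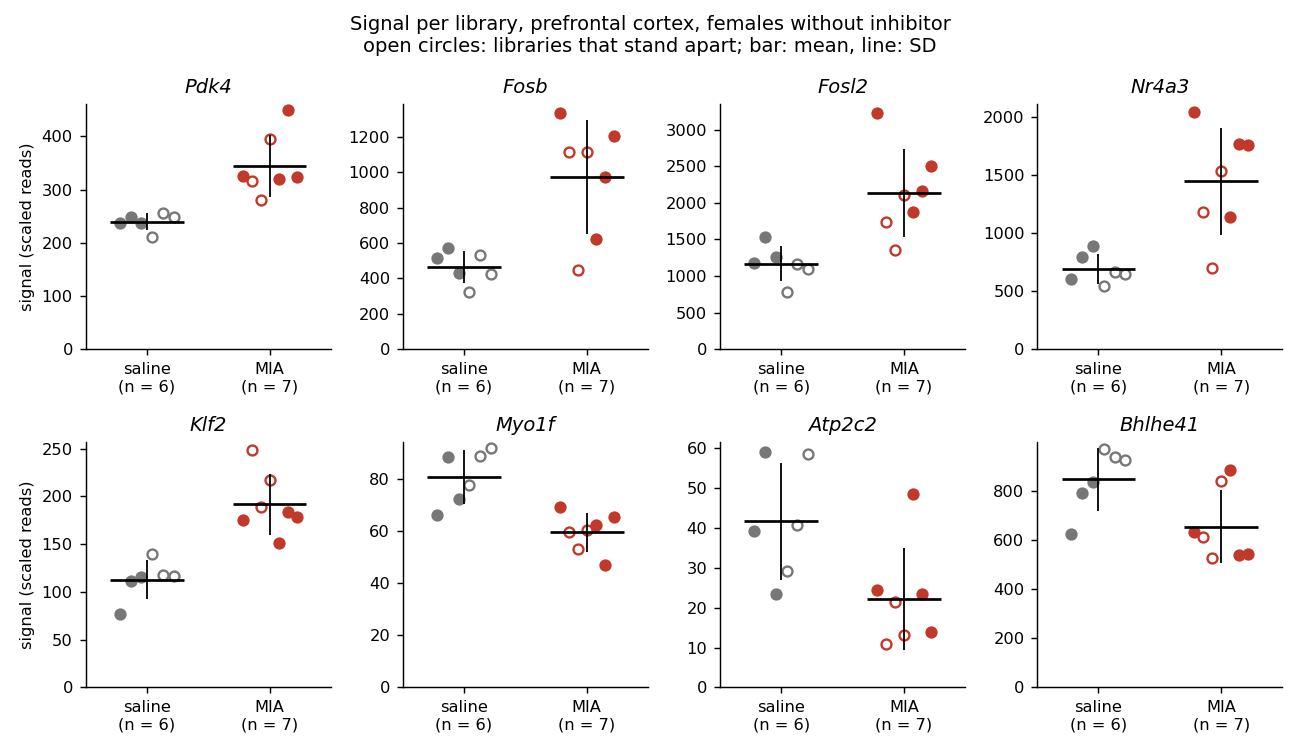
Signal (scaled reads, vertical axis, starting at 0) of 8 genes in each of the 6 saline (grey) and 7 MIA (red) libraries, with the mean as a bar and the SD as a line, and libraries that stand apart as open circles. Pdk4 and Klf2 separate the groups without overlap, and for Fosb, Fosl2 and Nr4a3 only MIA library 3, an open circle, lies in the saline range.

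Among genes lower in MIA, and passing over predicted genes, the 10 with the smallest p-values were of varied function. Predicted genes such as Gm3764 and Gm11948, given no description here, had smaller p-values than any of them. Myo1f, an unconventional myosin of myeloid cells, had 47.0 to 69.3 in MIA (median 60.6) and 66.4 to 92.1 in saline (median 83.2). It differed by -0.43 ± 0.12 (limma adjusted p = 0.598), and 6 of the 7 MIA libraries lay below the lowest saline library. Kdm8, a JmjC-domain hydroxylase, had 88.5 to 124 (median 106) against 112 to 135 (median 129), a difference of -0.30 ± 0.08.

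Atp2c2, a calcium and manganese pump of the secretory pathway, had 10.8 to 48.7 (median 21.5) against 23.6 to 59.1 (median 39.96), a difference of -0.96 ± 0.27. The Atp2c2 difference was -0.58 ± 0.37 without the libraries that stand apart and -1.44 ± 0.30 within them. MIA library 5 alone reached the saline median. Ece2, an endothelin-converting enzyme of neurons, had 52.0 to 92.5 (median 66.5) against 84.5 to 137 (median 91.8), a difference of -0.56 ± 0.16. C4a, a copy of the complement C4 gene, had 22.6 to 58.7 (median 29.7) against 42.1 to 69.7 (median 54.9), a difference of -0.80 ± 0.23. C4a is nearly identical to C4b, so the split of reads between the copies is uncertain. C4b itself had 407 to 812 against 529 to 793 and differed by -0.22, with overlap.

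Bhlhe41, a transcriptional repressor of the clock also called Dec2, had 525 to 885 in MIA (median 614) and 624 to 970 in saline (median 880), a difference of -0.39 ± 0.11. It differed by -0.22 ± 0.14 without the libraries that stand apart and by -0.54 ± 0.15 within them. Slc6a7, the brain proline transporter of glutamatergic terminals, had 2100 to 2516 (median 2224) against 2327 to 2695 (median 2614), a difference of -0.19 ± 0.06. Poln, a translesion DNA polymerase, had 14.4 to 27.6 (median 21.4) against 28.5 to 40.3 (median 33.8) with no overlap, a difference of -0.68 ± 0.21. For Poln the difference was -0.38 ± 0.25 without the libraries that stand apart and -1.04 ± 0.30 within them. Shpk, the kinase of sedoheptulose (-0.36 ± 0.11), and Zdhhc1, a palmitoyltransferase (-0.26 ± 0.08), were the others of these 10.

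In 25 genes (0.134%) the MIA and saline libraries did not overlap, 10 higher (0.0536%) and 15 lower (0.0804%). With labels assigned at random, over 1716 assignments, a gene separates fully in a given direction with a chance of 0.000583. The observed shares of higher and of lower genes were near that chance. Separation by itself therefore does not set these 25 genes apart from chance. Beside Pdk4, Plat, Arl4d, Rasl11a and Klf2, the higher ones included Nfil3, a repressor that shares sites with clock output factors (204 to 395 against 168 to 204, difference 0.65 ± 0.19). Iffo2, an intermediate filament family member (0.21 ± 0.07), Trim71, an RNA-binding ubiquitin ligase (0.66 ± 0.21), and Gpr137b, a lysosomal membrane protein (0.22 ± 0.08), were also higher throughout. Of the lower ones, 7 carry names: Poln; Osgin1 (-0.94), an oxidative stress-induced gene; the organic cation transporter Slc22a2 (-0.82); the nucleoside transporter Slc29a2 (-0.16); Mstn, the muscle growth inhibitor myostatin (-0.70, at a signal of 4.09 to 18.1); Tmem214 (-0.17); and Nxpe2 (-0.70). The 9 named genes that are neither among the smallest p-values nor in a gene list were named after their values were seen. For Nfil3 the gap was narrow, with the lowest MIA and the highest saline library both at 204. The other 9 of the 25 were predicted genes without a given name.

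Immediate-early genes had higher signal in MIA. All 33 members of that list were tested; 33 had a positive difference and 21 had an unadjusted p under 0.05, all of them higher, against 2.28% of all genes. Limma and edgeR called 0 of them and DESeq2 called 1, Fosb, which limma also called without MIA library 3. The median difference was 0.50, beside 0.01 for all genes, and the members ranged from 0.01 to 1.18. With the signal scaled to the same total, 30 of the 33 were positive, and with edgeR or DESeq2 32 were. The list was written with earlier results of these data known, so its direction is a description of these libraries.

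Members of the Fos and Jun families pair to form AP-1. Fos itself, the standard marker of recent neuronal activity, had 551 to 2044.5 in MIA (median 1400) and 461 to 795 in saline (median 574), a difference of 1.01 ± 0.34 (limma adjusted p = 0.789). MIA libraries 3 and 5, at 551 and 567, lay within the saline range and the other 5 lay above it. Junb had 1059 to 2273 against 537 to 1750 (0.80 ± 0.29), and Jun had 1130 to 1564 against 819 to 1259 (0.40 ± 0.14). The overlap was wider for both, since saline library 4 was high.

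The Egr zinc-finger factors also had their highest values in MIA libraries. Egr2 had 98.5 to 571 in MIA (median 474) and 114 to 208 in saline (median 169), the largest difference of the list at 1.18 ± 0.36. MIA library 3 was below every saline library for Egr2, and the other 6 were above all of them. Egr4 had 373 to 773 against 196 to 447 (1.04 ± 0.31), Egr1 had 4848 to 9280 against 4133 to 6131 (0.44 ± 0.16), and Egr3 had 3600 to 6544 against 2673 to 5288 (0.31 ± 0.16, unadjusted p above 0.05). Among the nuclear receptors, Nr4a1 differed by 0.59 ± 0.22 and Nr4a2 by 0.49 ± 0.14, with Nr4a2 at 623 to 1139 in MIA and 610 to 741 in saline.

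Activity-induced genes of synapses and calcium signalling were mixed. Arc, which trims AMPA receptors from synapses, had 3760 to 8919 in MIA (median 6833) and 2200 to 3867 in saline (median 3709), a difference of 0.84 ± 0.28. Npas4, a factor specific to calcium signalling in neurons, had 475 to 1334 against 405 to 748 (0.74 ± 0.33). Differences no larger than 1 standard error were found for Homer1, a scaffold (0.19 ± 0.19), Nptx2, a pentraxin that clusters AMPA receptors (0.09 ± 0.20), Bdnf, the neurotrophin (0.02 ± 0.17), and Rgs2, a G protein regulator (0.01 ± 0.12). For these 4 genes the MIA and saline ranges overlapped through most of their span.

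Feedback regulators had positive differences too. Dusp1, a phosphatase of MAP kinases, had 585 to 1484 in MIA (median 1035) and 469 to 815 in saline (median 643), a difference of 0.61 ± 0.22. Dusp5 differed by 0.50 ± 0.20, while Dusp6 (0.16 ± 0.11) and Dusp4 (0.02 ± 0.22) had an unadjusted p above 0.05. Gadd45b, a stress and activity gene of DNA demethylation, had 266 to 601 against 174 to 278 (0.71 ± 0.21), and Sik1, a kinase that restrains CREB signalling, had 413 to 1019 against 316 to 645 (0.68 ± 0.20). The antiproliferative gene Btg2 (0.64 ± 0.31), Klf10 (0.51 ± 0.17), Gadd45g (0.54 ± 0.20) and the pseudokinase Trib1 (0.35 ± 0.13) were on the same side.

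**Figure D2:**
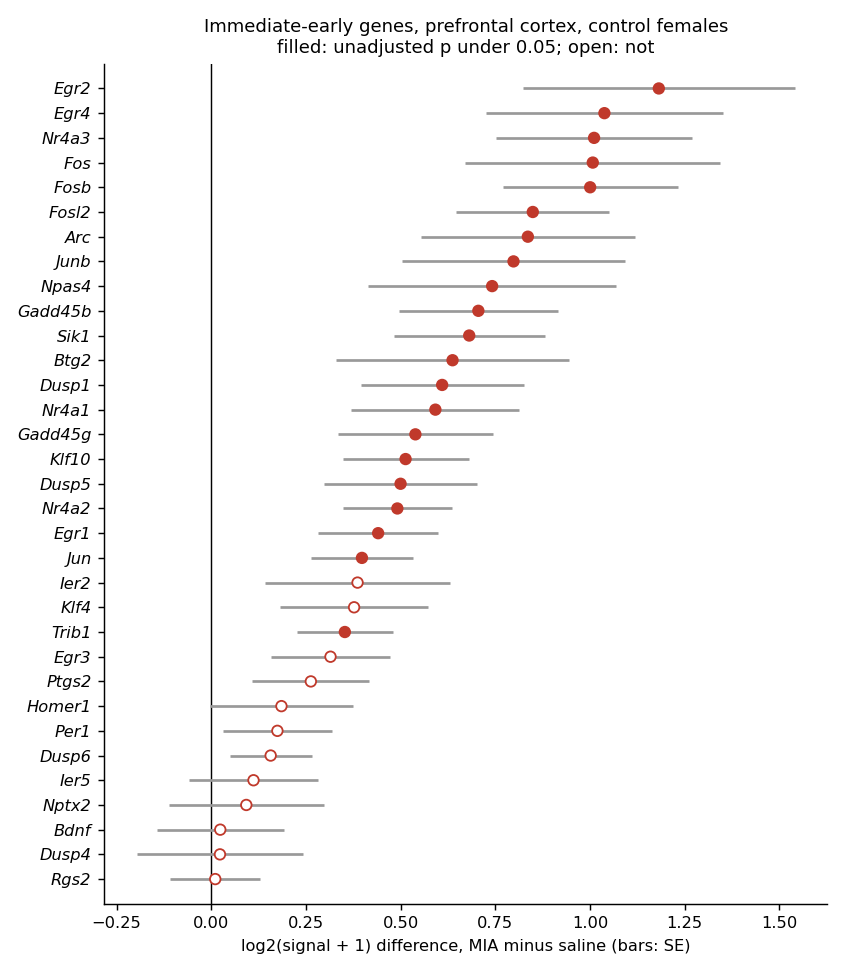
Difference in log2(signal + 1), MIA minus saline (horizontal axis), with its standard error, for the 33 immediate-early genes; filled points have an unadjusted p under 0.05. All points lie right of 0, from 0.01 for Rgs2 to 1.18 for Egr2, and 21 are filled.

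Many of these genes are textbook targets of CREB, which binds the cAMP response element TGACGTCA or its core TGACG. Both motifs were sought on both strands in the 250 bases before the gene start, the core also matching inside the full element, and TGACG was chosen after promoter sequences had been seen. RefSeq promoters (build GRCm38.p6) were matched for 24 of the 33 immediate-early genes and for 12533 of the tested genes. The core was present in 15 of the 24 (62.5%), against 25.6% of tested genes and 17.9% of all 27025 promoters. The full element was present in 2 of the 24, Dusp1 and Btg2, against 2.58% of tested genes. A match is a description of letters and shows no binding. The stretches below hold at least 1 match each, in capitals on the strand as read, for 5 genes with higher MIA signal. For Fos and Nr4a2 a further match lies outside the stretch, and each is 100 bases read 5′ to 3′ in the direction of the gene. They lie at chr12:85473776-85473875 (plus strand, Fos), chr2:57124063-57124162 (minus, Nr4a2), chr8:84978803-84978902 (minus, Junb), chr17:26508562-26508661 (minus, Dusp1) and chr1:134079268-134079367 (minus, Btg2).
Fos: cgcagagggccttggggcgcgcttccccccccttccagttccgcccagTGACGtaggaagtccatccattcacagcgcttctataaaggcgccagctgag
Nr4a2: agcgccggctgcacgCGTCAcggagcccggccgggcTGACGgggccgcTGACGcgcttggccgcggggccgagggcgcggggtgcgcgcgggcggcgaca
Junb: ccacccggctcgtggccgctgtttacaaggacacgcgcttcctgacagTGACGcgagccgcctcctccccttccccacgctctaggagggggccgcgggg
Dusp1: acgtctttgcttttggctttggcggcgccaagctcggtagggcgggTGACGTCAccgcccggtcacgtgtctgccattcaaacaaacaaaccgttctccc
Btg2: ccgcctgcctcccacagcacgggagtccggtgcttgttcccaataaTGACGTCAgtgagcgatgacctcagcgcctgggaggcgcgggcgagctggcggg

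Averaged over the 33 members, log2(signal + 1) was 9.60 to 10.37 in MIA (median 10.17) and 9.29 to 9.76 in saline (median 9.55). MIA libraries 1, 2, 4, 6 and 7 lay between 10.06 and 10.37, MIA library 5 at 9.77 just above the highest saline library, and MIA library 3 at 9.60 inside the saline range. In the hippocampal libraries of the same group and number, MIA library 3 was also lowest, at 8.94, in a group that reached 10.18, against 8.99 to 9.46 in saline. Without MIA library 3 the cortical median difference was 0.59 with 23 members at an unadjusted p under 0.05, against 2.61% of all genes higher. Without the libraries that stand apart, 31 of 33 members were positive with a median of 0.48, and 12 had an unadjusted p under 0.05 on the higher side (2.96% of all genes) and 0 on the lower (2.33%). Within the libraries that stand apart, the median was 0.54, with 14 members higher (2.09%) and 0 lower (3.01%). The run without the libraries that stand apart drops MIA library 3. Leaving out the labels whose hippocampal library stands apart keeps it. Differences were then 0.75 for Fosb, 0.70 for Fosl2, 0.88 for Nr4a3 and 0.65 for Fos. In the run that drops MIA library 3 they were 0.98, 0.86, 1.12 and 0.88.

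**Figure D3:**
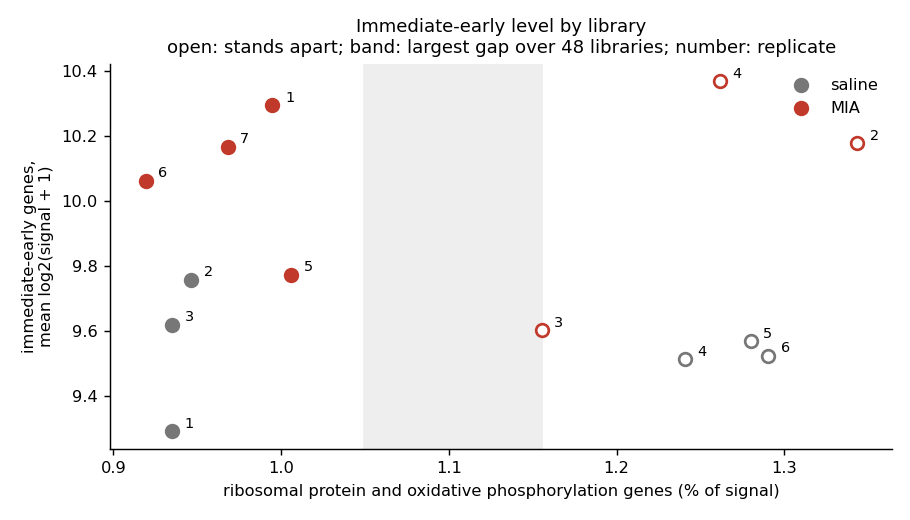
Mean log2(signal + 1) of the 33 immediate-early genes (vertical axis) against the share of signal from ribosomal protein and oxidative phosphorylation genes (horizontal axis, %), one point per library with its replicate number; open points stand apart and the band marks the largest gap in that share. MIA libraries (red) lie at 9.60 to 10.37 and saline libraries (grey) at 9.29 to 9.76, on both sides of the band.

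Clock genes differed in both directions. Of 19 members tested, none was called. At an unadjusted p under 0.05, 2 were higher and 7 lower, against 2.28% and 2.79% of all genes, and the list's median was -0.12. Without the libraries that stand apart, 2 were higher (2.96% of all genes) and 3 lower (2.33%), with a median of -0.10. Within those libraries, 3 were higher (2.09%) and 5 lower (3.01%), with a median of -0.11. Arntl, the positive arm of the clock also called Bmal1, had 714 to 1075 in MIA (median 1018) and 688 to 874 in saline (median 711), a difference of 0.35 ± 0.10 (limma adjusted p = 0.682). Its partner Clock (0.19 ± 0.14) and the paralogue Npas2 (-0.08 ± 0.08) had an unadjusted p above 0.05. Nfil3, given above, was the other higher member.

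The lower members include known targets of Clock and Arntl. So are Per1, Cry1 and Cry2, which had an unadjusted p above 0.05. Whether such regulation has a part in the direction was not tested. Dbp, a PAR-type output factor, had 788 to 1528 in MIA (median 855) and 979 to 1972 in saline (median 1474), a difference of -0.53 ± 0.19. Per2, a core repressor, had 387 to 1545 (median 839) against 970 to 1448 (median 1196), a difference of -0.50 ± 0.19 that was -0.31 without MIA library 2, the lowest. MIA libraries 1, 2, 6 and 7 were below every saline library for Per2 and Dbp alike, whereas MIA library 5 was the highest of all 13 for Per2.

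Per3 had 817 to 1313 against 1218 to 1833 (-0.38 ± 0.15), and 5 of the 7 MIA libraries lay below the saline range. Ciart, a repressor known as Chrono, had 203 to 423 against 247 to 564 (-0.49 ± 0.21). The output factor Tef (-0.18 ± 0.07) and the nuclear receptor Nr1d2 (-0.19 ± 0.08) also leaned lower, each with 5 MIA libraries below the saline range. The remaining repressors Per1 (0.17 ± 0.14), Cry1 (-0.12 ± 0.10), Cry2 (-0.04 ± 0.05) and Nr1d1 (-0.12 ± 0.10) had an unadjusted p above 0.05. Per1 is also counted among the immediate-early genes. 

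The E-box CACGTG was found in the same promoter window in 5 of 17 matched clock genes (29.4%), against 8.09% of tested genes. Among the immediate-early genes it was found in 6 of 24 (25.0%). The D-box was found in 1 of the 17 clock genes, and the RORE and CArG motifs in 0. The stretches shown hold CACGTG in capitals for 3 clock genes, Bhlhe41 and Tef with lower MIA signal and Cry1 with little difference. They lie at chr6:145865521-145865620 (minus strand), chr15:81802499-81802598 (plus) and chr10:85185062-85185161 (minus) of GRCm38.p6 and come from RefSeq.
Bhlhe41: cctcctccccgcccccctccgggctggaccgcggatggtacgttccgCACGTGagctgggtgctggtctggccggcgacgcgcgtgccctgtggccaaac
Tef: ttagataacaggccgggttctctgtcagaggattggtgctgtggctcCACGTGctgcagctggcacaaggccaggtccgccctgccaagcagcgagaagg
Cry1: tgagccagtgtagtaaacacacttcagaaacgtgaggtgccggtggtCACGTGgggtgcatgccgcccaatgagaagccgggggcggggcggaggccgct

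**Figure D4:**
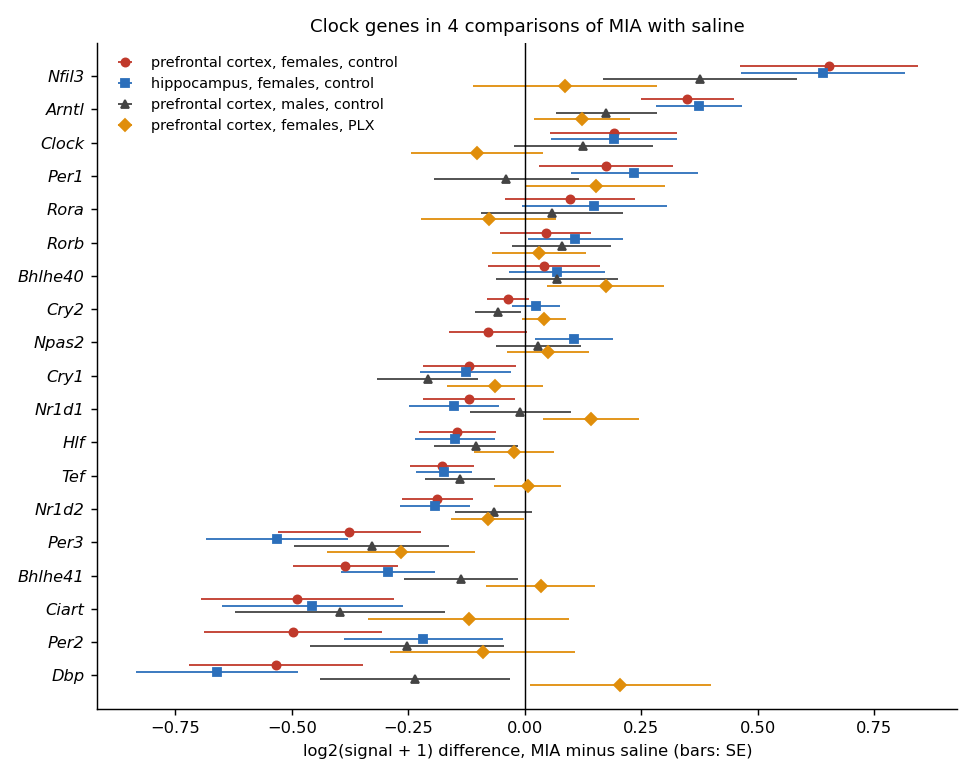
Difference in log2(signal + 1), MIA minus saline (horizontal axis), with its standard error, for the 19 clock genes in 4 comparisons: prefrontal cortex of control females (red circles), hippocampus of control females (blue squares), prefrontal cortex of control males (black triangles) and prefrontal cortex of females given PLX (orange diamonds). In cortex of control females the genes run from -0.53 for Dbp to 0.65 for Nfil3.

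Genes induced by glucocorticoids differed in both directions. Of 20 members tested, 6 were higher and 1 was lower at an unadjusted p under 0.05, against 2.28% and 2.79% of all genes, and the median was 0.09. That median was -0.03 without MIA library 3. Beside Pdk4, the higher members were Ddit4, an mTOR inhibitor (939 to 1467 in MIA, 465.7 to 1273 in saline, 0.58 ± 0.19), and Cdkn1a, the cell cycle inhibitor p21 (695 to 1146 against 429 to 733, 0.60 ± 0.20). Errfi1, an inhibitor of EGF receptor signalling (0.25 ± 0.08), Sgk1, a serum and glucocorticoid kinase (0.42 ± 0.17), and Nfkbia, the NF-κB inhibitor (0.40 ± 0.16), were the others. Several of these 6 genes also respond to neuronal activity or cell stress.

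Other classical targets of the hormone receptor were not among the higher ones. Fkbp5, a chaperone of the glucocorticoid receptor, had 679 to 2222 in MIA (median 785) and 908 to 1354 in saline (median 1111), a difference of -0.07 ± 0.22. MIA libraries 3 and 4 were the highest of all 13 for Fkbp5, at 2222 and 1744, while MIA libraries 1, 2, 6 and 7 lay below every saline library. Plin4, a lipid droplet coat protein, spread further still, at 15.4 to 1107 in MIA (median 67.5) and 148 to 494 in saline (median 263). MIA library 3 held the highest Plin4 value, and the difference of -1.33 ± 0.61 was -1.89 without it and -0.87 without MIA library 2, the lowest. Tsc22d3, known as GILZ (0.20 ± 0.18), and Zbtb16 (0.04 ± 0.26) had an unadjusted p above 0.05, with MIA library 4 highest for Tsc22d3 and MIA library 3 for Zbtb16. MIA library 3 thus had the lowest immediate-early mean of its group and the highest glucocorticoid mean (10.25, in a group of 9.37 to 10.25, against 9.57 to 9.85 in saline).

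Genes of cholesterol synthesis and handling were mostly slightly higher, with 20 of 28 positive (52.7% of all genes) and a median of 0.10. At an unadjusted p under 0.05, 4 were higher and 0 lower (2.28% and 2.79% of all genes). Without the libraries that stand apart, 1 was higher (2.96% of all genes) and 0 lower (2.33%), with a median of 0.07 and 22 positive. Within those libraries, 3 were higher (2.09%) and 1 lower (3.01%), with a median of 0.11. The member with the smallest p-value was Cyp51, the lanosterol demethylase (1660 to 2136 against 1494 to 1812, 0.25 ± 0.07). Stard4, a sterol carrier (0.22 ± 0.10), and Hmgcs1, a synthase of the early pathway (0.17 ± 0.08), were also higher. The ranges overlapped in each of these 3 genes.

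Immune genes had small differences or low signal. Csf1r, the receptor that PLX5622 blocks, had 2392 to 2719 in MIA (median 2564) and 2166 to 3255 in saline (median 2512). The difference was -0.03 (exact two-sided permutation test over 1716 assignments, p = 0.707; the smallest p this design allows is 0.000583). It was 0.09 without the libraries that stand apart, 0.01 without saline library 5 and 0.03 without saline library 6. Of the 31 microglial genes, 26 had a negative difference with a median of -0.07, and 1 was lower at an unadjusted p under 0.05, Csf3r, the G-CSF receptor (-0.34 ± 0.13), against 2.79% of all genes. Csf3r differed by -0.01 without the libraries that stand apart and by -0.70 within them. The microglial median was 0.08 without the libraries that stand apart and -0.22 within them. Saline libraries 5 and 6, which stand apart, had the highest summed microglial signal, 22928 and 23534, in a group that began at 16451, against 17545 to 20591 in MIA. P2ry12 (-0.02 ± 0.10), Cx3cr1 (-0.03 ± 0.09) and Tmem119 (-0.14 ± 0.10), markers of resting microglia, all had overlapping groups.

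Of 20 genes of antigen presentation, 3 were lower at an unadjusted p under 0.05 (2.79% of all genes) and 0 higher, with a median of 0.01. These were class II genes: Cd74, the invariant chain (57.2 to 107 in MIA, 77.5 to 137 in saline, -0.40 ± 0.18), H2-Aa (21.5 to 50.6 against 41.2 to 65.3, -0.55 ± 0.26) and H2-Eb1 (26.8 to 44.2 against 36.7 to 70.4, -0.39 ± 0.18). Complement genes had a median of -0.05 with 1 of 22 lower, the receptor C5ar1 (-0.59 ± 0.25), a share near that of all genes. The receptors of the cytokines central to models of immune activation differed little, at 0.00 ± 0.12 for Il6ra, 0.09 ± 0.10 for Il6st and 0.02 ± 0.10 for Il17ra. Of 23 interferon-stimulated genes none was higher and 1 was lower, the factor Irf1 (-0.23 ± 0.11), a share near that of all genes. Markers of blood were lower in MIA in 5 of 5 tested members, with a median of -0.77 and none at an unadjusted p under 0.05. Their summed signal was 34.8 to 469 in MIA and 47.5 to 387 in saline, and their median was -2.08 without the libraries that stand apart and 0.76 within them.

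Neuronal and glial identity genes were close to 0. Medians were 0.04 for upper-layer neurons (14 genes), 0.02 for deep-layer neurons (17), 0.02 for interneurons (22), 0.05 for myelin genes (20), 0.00 for astrocytes (21) and -0.06 for striatal projection genes (17). Ntsr1, a neurotensin receptor of deep-layer corticothalamic cells, was an exception within its list, at 238 to 328 in MIA and 187 to 266 in saline (0.42 ± 0.11, limma adjusted p = 0.598). The interneuron genes Pvalb (-0.02 ± 0.17) and Sst (0.13 ± 0.16) had overlapping groups.

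The counts of list members that follow are at an unadjusted p under 0.05, where all genes gave 2.28% higher and 2.79% lower. Of synaptic lists, glutamate receptors had a median of 0.03 with 1 of 29 higher, Grm3, a presynaptic and glial metabotropic receptor (0.31 ± 0.14, and 0.16 without the libraries that stand apart), a share near that of all genes. GABA receptors had a median of 0.07 with 0 of 20 at an unadjusted p under 0.05, and synaptic adhesion and scaffold genes 0.05 with 0 of 32. In the endothelial list, Pecam1, an adhesion molecule (0.22 ± 0.10), and Slc2a1, the glucose transporter of the barrier (0.27 ± 0.12), were the 2 higher of 19. Slc2a1 was at 0.17 without MIA library 4. Nuclear noncoding RNAs had a median of -0.23, with 3 of 14 lower, namely Snhg11 (-0.29 ± 0.14), Neat1 (-0.30 ± 0.14) and Ftx (-0.30 ± 0.14). Neat1 was at -0.11 without the libraries that stand apart. Their summed signal was 140832 to 210378 in MIA and 174339 to 236904 in saline. Among 19 histone genes, H4c9 (0.60 ± 0.28) and H1f4 (0.52 ± 0.25) were higher at low signal, H1f4 at 0.19 without the libraries that stand apart. Of the 33 developmental signalling genes, 1 was lower, Bmp4 (-0.41 ± 0.15), a share near that of all genes. Ribosomal protein genes (median -0.01, 3 of 77 lower) and oxidative phosphorylation genes (0.01, 1 of 84 lower) had medians near 0 and counts near the share of all genes.

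**Figure D5:**
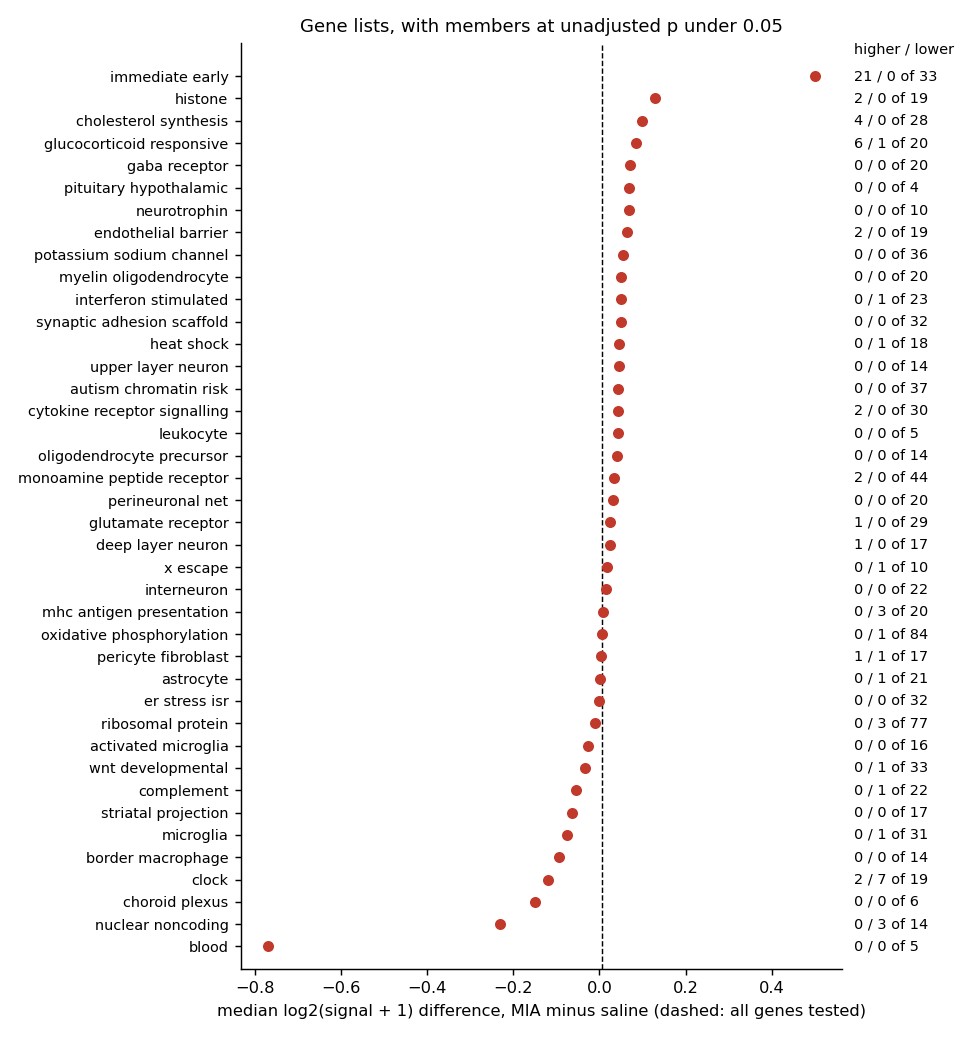
Median difference in log2(signal + 1), MIA minus saline (horizontal axis), of each gene list with at least 4 tested members, with the median of all genes dashed; figures at the right count members higher and lower at an unadjusted p under 0.05 among those tested. Immediate-early genes lie at 0.50 with 21 of 33 higher, blood genes at -0.77 with none, and the other lists between -0.23 and 0.13.

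Whether the female cortical pattern differed from that of males, of females given the inhibitor, or of hippocampus was tested directly, and no gene passed. For the difference from males limma called 0 (0%), and 365 genes had an unadjusted p under 0.05 (1.96%), while edgeR called 0 with 349 unadjusted. MIA against saline in males called 0 (0%). The smallest p-values went to Pdk4, at 0.51 ± 0.11 in females and -0.13 ± 0.12 in males (difference 0.64 ± 0.16, limma adjusted p = 1.00), and Klf2, at 0.76 ± 0.20 and -0.41 ± 0.22 (difference 1.17 ± 0.30). Slc23a3, an orphan transporter of low signal (4.91 to 27.1 in the 13 libraries), was the third, at 0.51 ± 0.31 and -1.12 ± 0.33. Among the 11 male libraries, 3 of 5 MIA and 5 of 6 saline stood apart, so within either set the male groups are small.

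The immediate-early list had a median of 0.10 in males, with 5 of 33 higher at an unadjusted p under 0.05 (1.37% of all genes) and 0 lower (1.09%). The difference between the sexes had an unadjusted p under 0.05 for 5 of the 33, against 1.96% of all genes. For Arc the difference was 1.01 ± 0.42, between 0.84 in females and -0.17 in males, and for Dusp1 0.72 ± 0.32, between 0.61 and -0.11. Fosb, Fosl2 and Nr4a3 were on the higher side in males too, at 0.61, 0.60 and 0.62. In the glucocorticoid list the corresponding count was 7 of 20. Ddit4 stood at 0.58 in females and -0.26 in males (difference 0.85 ± 0.28), Sgk1 at 0.42 and -0.28 (0.70 ± 0.24), and the list's median in males was -0.20. Ntsr1 was at 0.42 and -0.15 (difference 0.56 ± 0.17), and Slc2a1 at 0.27 and -0.27 (0.54 ± 0.18). Clock genes gave 0 of 19 at an unadjusted p under 0.05 for this difference, with Per3 at -0.38 and -0.33 and Ciart at -0.49 and -0.40.

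For the difference from females given PLX, limma called 0 (0%), and 574 genes had an unadjusted p under 0.05 (3.08%), while edgeR called 0 with 623 unadjusted, and MIA against saline under PLX called 0 (0%). The smallest p-values went to Zfp493, a zinc-finger gene (0.21 ± 0.08 without and -0.33 ± 0.09 with PLX), Ckap2l, a mitotic spindle gene (0.63 ± 0.22 and -0.55 ± 0.23), and Amz1, a metalloprotease (-0.16 ± 0.08 and 0.27 ± 0.09). Their adjusted p was 0.859. Under PLX the immediate-early median was 0.18 with 4 of 33 higher (2.98% of all genes) and 0 lower (2.39%), and 2 of 33 differences had an unadjusted p under 0.05. Fosl2 stood at 0.21 ± 0.21 under PLX and Klf10 at 0.02, and these were the 2. The class II genes were on opposite sides, Cd74 at -0.40 without and 0.33 with PLX, H2-Aa at -0.55 and 0.53, and H2-Eb1 at -0.39 and 0.35. Positive differences under PLX were not particular to them. They were found in 18 of the 20 genes of their list, 68 of 77 ribosomal protein genes and 80 of 84 oxidative phosphorylation genes. The median over all genes was -0.01 there. Among cortical libraries of females given PLX, only MIA library 6 stood apart. In the antigen presentation list 4 of 20 genes had an unadjusted p under 0.05 for the difference. In the clock list 3 of 19 did, namely Dbp (-0.53 without, 0.20 with PLX), Bhlhe41 (-0.39 and 0.03) and Nfil3 (0.65 and 0.09).

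For the difference from hippocampus, limma called 0 (0%), with 222 genes at an unadjusted p under 0.05 (1.19%). Hippocampus itself gave 1 call among these genes (0.00536%), the predicted gene Gm13502, at 0.59 ± 0.12 there and 0.18 ± 0.12 in cortex. With the animal label as a block hippocampus gave 8 calls among the 18646 genes, 7 higher and 1 lower. Called were 1 of 33 immediate-early, 2 of 20 glucocorticoid, 2 of 28 cholesterol and 0 of 19 clock genes. With a fitted term for libraries standing apart hippocampus gave 9 calls among the 18646, and without those libraries 0. With that term, 1 of 33 immediate-early, 2 of 20 glucocorticoid, 2 of 28 cholesterol and 1 of 19 clock genes were called. The smallest p-values for the difference went to Osbpl5, a lipid transfer protein (0.10 ± 0.06 in cortex and -0.21 ± 0.06 in hippocampus), Adam32, a low-signal metalloprotease-like gene (-0.77 ± 0.26 and 0.39 ± 0.24), and Gipc3, a PDZ adaptor (0.61 ± 0.21 and -0.20 ± 0.18). Pdk4 stood at 0.51 in cortex and 0.58 ± 0.12 in hippocampus, Fosb at 1.00 and 1.05 ± 0.23, Arl4d at 0.74 and 0.73 ± 0.20, and Plat at 0.34 and 0.32 ± 0.08. The immediate-early median in hippocampus was 0.42. At an unadjusted p under 0.05, 17 of 33 members were higher (2.87% of all genes) and 0 lower (3.39%). At that threshold 11 of 28 cholesterol genes were higher there and 1 was lower, with 22 of the 28 positive. The clock counts in hippocampus were 2 higher and 6 lower of 19, with Dbp at -0.66 and Arntl at 0.37. The hippocampal libraries carry the same group names and numbers, so both tissues may come from the same animals and their values are not independent.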

How the data were processed

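Messenger RNA libraries of 7 MIA and 6 saline female prefrontal cortices were compared within all 48 cortical libraries. Per the submitters' processing notes, reads were trimmed with Trimmomatic and aligned with STAR 2.6.1d to GRCm39 (mm39); the sources used here name no counting tool. The deposited values are a signal, which is whole read counts divided by 1 factor per library: in all 96 columns every value came out whole after multiplication (tolerance 0.01). In columns whose factor is close to 1 this says little. Columns of other samples numbered 0. Genes carry symbols without coordinates, and 0 mitochondrially encoded genes are in the table.

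Limma 3.58.1 in R 4.3.3 was fitted on log2(signal + 1) with 8 group means, variances moderated with a trend, two-sided tests, and Benjamini-Hochberg adjustment over 18646 genes. Calls used an adjusted p under 0.05. The tissue difference used all 96 libraries and 16 groups. EdgeR 4.0.16 and DESeq2 1.42.0 ran on the recovered whole reads of the 18646 genes. Scripts were tested on simulated data. Named genes were the 10 smallest p-values in each direction, the 3 smallest in the other comparisons, up to 4 per list, and 10 genes named whatever their result; further members of the immediate-early, clock and glucocorticoid lists were added after their values were seen. Predicted genes were passed over, and some items that the rule names are not reported here. The comparison, the members and the 41 gene lists were chosen with earlier results of these data known. Alternatives covered scaling, filters, pseudocount, library weights, libraries that stand apart, and leaving out each library; terms for the share itself and for labels standing apart in hippocampus were chosen after seeing the data.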

Additional observations from a re-analysis of the deposited data

Results flagged for a closer look

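Of 72 groups of libraries examined for 36 items, 4 held a library far from the others of its group. This was judged by its gap to the nearest library as a share of the group's range. The items were reported genes, read depth and the share of ribosomal protein and oxidative phosphorylation signal. Means of the immediate-early, clock, glucocorticoid and blood lists were also items. Chance flags about 1 in 20 groups. Arl4d, a small GTPase gene, had a signal of 268 in saline library 1, below the next at 407. Atp2c2, the secretory pathway pump, reached 48.7 in MIA library 5, above the next at 24.4. C4a, the near-identical copy of C4b, reached 58.7 in MIA library 7, above the next at 33.8. P2ry12, the microglial purinergic receptor, was 729 in MIA library 3, below the next at 1014.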

How the results depend on the processing

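The count of 0 calls became 2 with DESeq2 and lay between 0 and 3 when each library was left out in turn, with 3 only without MIA replicate 3. The immediate-early median kept its sign in every setting run. The count at an unadjusted p under 0.05 was 945 as reported, 1464 with a fitted term for libraries standing apart, 1757 with the share as a term and 1784 with a term for the labels standing apart in hippocampus. Limma's smallest adjusted p was 0.153, 0.0661 and 0.0726 with these terms, each with 0 calls. Genes close to 0 changed sign. Without the libraries that stand apart, differences were 0.093 for Csf1r, 0.14 for P2ry12, 0.13 for Cx3cr1, -0.011 for Il6st and 0.24 for Pvalb. Without the labels whose hippocampal library stands apart, they were 0.085 for Csf1r, 0.037 for P2ry12, 0.016 for Tmem119, 0.11 for Cx3cr1, -0.040 for Il6st and 0.24 for Pvalb. Within the libraries that stand apart, Il6ra was -0.027 and Fkbp5 0.32. With a term for those libraries Pvalb was 0.024, with the share as a term 0.0023, and with a term for the hippocampal labels 0.11, where Il6ra was -0.0031 and Il6st -0.0039. Scaled to the same total, Il6ra was -0.022 and Il17ra -0.00832. With library weights, P2ry12 was 0.0052, Cx3cr1 0.0088, Il6ra -0.028 and Il17ra -0.0076. Fkbp5 was 0.068 with edgeR and with DESeq2. The cause was not tested. Leaving out 1 library at a time, Csf1r ran from -0.087 to 0.030, P2ry12 from -0.063 to 0.055, Cx3cr1 from -0.074 to 0.036, Il6ra from -0.048 to 0.074, Il17ra from -0.039 to 0.062, Pvalb from -0.13 to 0.11 and Fkbp5 from -0.25 to 0.032. Unadjusted counts for the difference from males were 842 with the term and 2130 without the labels whose hippocampal library stands apart. The latter fit keeps only male saline libraries 2 and 6, and limma's smallest adjusted p was 0.14. Leaving out the libraries that stand apart keeps only male saline library 6, so no count is given. For the difference from females given PLX the count was 314 without the libraries that stand apart. For the difference from hippocampus it was 678 with the animal label as a block. Each count came with 0 calls.

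With the replicate number as a block, limma called 0 genes (919 unadjusted), and 0 with replicates 1 to 6 of the 2 groups (596 unadjusted). The block gave 0 calls for the differences from males and from females given PLX, and Fkbp5 was 0.032 in both block fits. After removal of the group means, same-numbered MIA and saline libraries correlated at -0.48 to 0.38, and none correlated best with its own number. Number 4, with both libraries standing apart, had 0.38, and number 2, with only the MIA library apart, had -0.48. Since the low and high sets enter these correlations, they cannot show whether the numbers pair the samples.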
